A study of Mus musculus with 2 samples.

Results

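Acute phase proteins are secreted during inflammation, and antiproteases hold in check the proteases that inflammatory cells release. The 7 genes described here were Saa3, Slpi, Hp, Saa1, Saa2, Orm1 and Cp. They were chosen by symbol from the 55357 genes listed in the deposited matrices, and each symbol had 1 row in both. Their identifiers in the files are ENSMUSG00000040026 (Saa3), ENSMUSG00000017002 (Slpi), ENSMUSG00000031722 (Hp), ENSMUSG00000074115 (Saa1), ENSMUSG00000057465 (Saa2), ENSMUSG00000039196 (Orm1) and ENSMUSG00000003617 (Cp). Their products are 3 serum amyloid A proteins (Saa1, Saa2, Saa3), secretory leukocyte peptidase inhibitor (Slpi), haptoglobin (Hp), an acid glycoprotein (Orm1) and ceruloplasmin (Cp).

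Droplet sequencing of single cells was done on mouse livers in which carbon tetrachloride (CCl4), a toxin that injures hepatocytes, had caused fibrosis. One library came from each of 2 conditions: CCl4 with IPA (indole propionic acid, a tryptophan metabolite of gut bacteria), called the IPA library below, and CCl4 alone, which served as its control. Every liver analysed here had thus been exposed to CCl4. The number, strain, sex and age of the mice, whether animals were pooled, and the doses and durations of CCl4 and IPA are all unstated in the available labels.

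The acute phase response is driven mainly by interleukin 6 and interleukin 1, which act through STAT3, NF-kB and C/EBP factors. In mice, hepatocytes are the main source of Saa1, Saa2, Hp and Orm1 products in blood, whereas Saa3 is best known from cells outside the hepatocyte lineage. Slpi inhibits the neutrophil proteases elastase and cathepsin G, and neutrophils also make Hp and store it in granules.

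In all, 10471 barcodes with 37983923 UMIs (unique molecular identifiers, each a captured transcript) made up the IPA library, and 10427 barcodes with 45009730 UMIs the CCl4 library. Medians per barcode were 2771 UMIs in the IPA library and 3172 in the CCl4 library, and the median mitochondrial share was 1.78% in the IPA library and 3.53% in the CCl4 library. After filtering and removal of called doublets, 10128 IPA and 10016 CCl4 barcodes were analysed. The libraries had 23 barcodes in common, 0.220% of the IPA and 0.221% of the CCl4 barcodes. With 1 library per group there is no replicate error and no test was possible. Intervals are exact at 95% and cover counting error only, and each comparison is between these libraries, not between the treatments.

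Cells were sorted into gates by marker genes that include none of the 7 genes. A barcode entered a gate with UMIs of at least 3 of its markers and of at least 2 more than of any other list. The mesothelial gate (lining cells of the liver surface) held 88 IPA and 94 CCl4 cells, and the stromal gate (collagen-producing and contractile cells) held 8 in each. There were 1056 IPA and 851 CCl4 cells in the neutrophil gate, and 255 IPA and 431 CCl4 cells in the monocyte gate. A gate is a range of marker counts rather than a cell type. Cells at its limit numbered 9 IPA and 12 CCl4 in the mesothelial gate, 49 IPA and 44 CCl4 in the neutrophil gate, and 24 IPA and 98 CCl4 in the monocyte gate. Defining markers were present in each: all 10 mesothelial, 12 neutrophil and 14 monocyte markers had UMIs in their own gates in both libraries. In the stromal gate, 14 of 14 markers had UMIs in the IPA library and 12 of 14 in the CCl4 library, where the stellate cell genes Reln and Lrat were at 0.

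The genes differed in the gates that held them. Saa3 lay mostly in the mesothelial gate. That gate held 97.8% of its 15020 UMIs in the IPA library and 87.4% of its 15327 UMIs in the CCl4 library. Of the 13395 CCl4 Saa3 UMIs of that gate, 3565 lay in 11 cells with at least as many stromal as mesothelial markers. Barcodes without a gate held 0.379% of the IPA and 11.2% of the CCl4 Saa3 UMIs. Slpi was divided between the mesothelial gate (51.3% of UMIs in the IPA library, 48.1% in the CCl4 library) and the neutrophil gate (33.8% IPA, 31.2% CCl4). Hp was a gene of the neutrophil gate (65.1% IPA, 61.7% CCl4) and of the monocyte gate (24.1% IPA, 25.8% CCl4). Cp lay in the mesothelial gate (58.1% IPA, 34.1% CCl4) and in a gate of bile duct cells (32.9% IPA, 55.5% CCl4). Orm1 had 41.0% of 234 IPA UMIs and 50.0% of 186 CCl4 UMIs in the neutrophil gate, and 54.3% IPA and 32.8% CCl4 in the hepatocyte gate. Saa1 had 36 UMIs in the IPA library and 13 in the CCl4 library, with 63.9% IPA and 38.5% CCl4 in the hepatocyte gate and 30.6% IPA and 53.8% CCl4 in the mesothelial gate, and Saa2 had 12 in the IPA library and 0 in the CCl4 library.

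**Figure D1:**
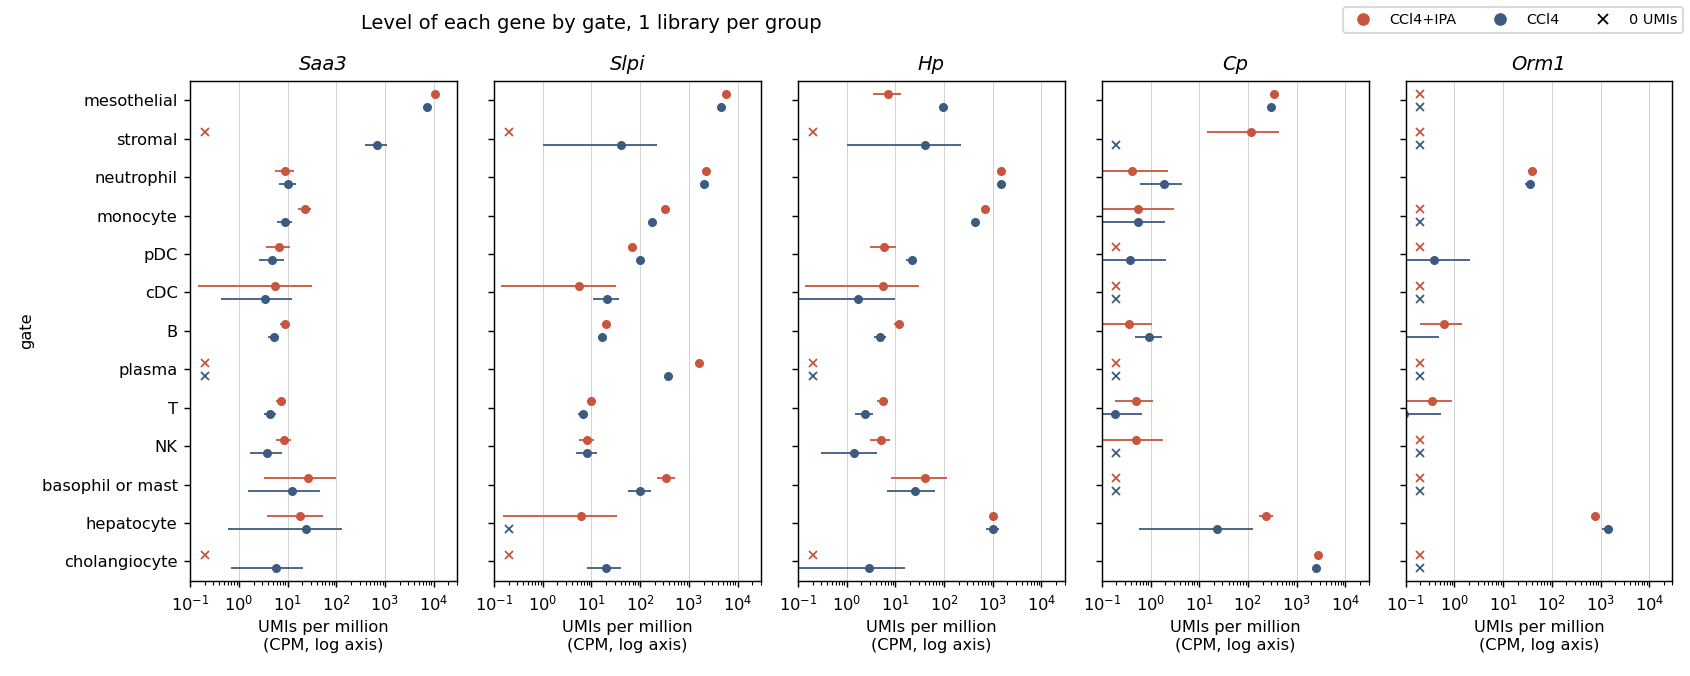
Level of Saa3, Slpi, Hp, Cp and Orm1 in each gate, as UMIs per 1e+06 UMIs of the gate (CPM, horizontal log axis), with points for the IPA library (red) above those for the CCl4 library (blue); lines are exact 95% Poisson intervals and crosses mark 0 UMIs. Saa3 stands at 10499 CPM (IPA) and 7336 CPM (CCl4) in the mesothelial gate, and Hp at 1467 CPM (IPA) and 1443 CPM (CCl4) in the neutrophil gate.

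The sequences before the start sites are shown because Saa3 was found in most mesothelial cells and Saa1, a gene of the same family, in 2 IPA and 4 CCl4 ones, and because Slpi and Cp were present beside Saa3 in the mesothelial gate. Each is the stretch of 250 bases before the start site from RefSeq (GRCm38.p6, minus strand of chr7:46715677-46715926 for Saa3, minus strand of chr2:164356508-164356757 for Slpi, minus strand of chr7:46742981-46743230 for Saa1, and plus strand of chr3:19956999-19957248 for Cp), read 5′ to 3′. Capitals mark matches to a C/EBP motif, TTGCNNAA, searched on both strands.
Saa3: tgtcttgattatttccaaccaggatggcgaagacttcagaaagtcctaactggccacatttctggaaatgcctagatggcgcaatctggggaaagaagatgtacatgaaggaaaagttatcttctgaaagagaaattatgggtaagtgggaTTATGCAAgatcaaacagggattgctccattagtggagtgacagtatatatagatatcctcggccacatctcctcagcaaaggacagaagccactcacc
Slpi: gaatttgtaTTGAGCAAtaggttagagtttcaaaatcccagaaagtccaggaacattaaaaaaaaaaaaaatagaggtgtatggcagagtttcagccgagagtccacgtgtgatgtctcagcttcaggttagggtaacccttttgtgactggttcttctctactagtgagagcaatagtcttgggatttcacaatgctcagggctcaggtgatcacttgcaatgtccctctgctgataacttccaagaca
Saa1: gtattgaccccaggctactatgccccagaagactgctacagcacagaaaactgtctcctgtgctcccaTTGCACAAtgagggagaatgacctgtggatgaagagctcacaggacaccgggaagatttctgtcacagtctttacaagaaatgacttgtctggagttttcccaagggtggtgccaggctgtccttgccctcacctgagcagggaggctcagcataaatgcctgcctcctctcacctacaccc
Cp: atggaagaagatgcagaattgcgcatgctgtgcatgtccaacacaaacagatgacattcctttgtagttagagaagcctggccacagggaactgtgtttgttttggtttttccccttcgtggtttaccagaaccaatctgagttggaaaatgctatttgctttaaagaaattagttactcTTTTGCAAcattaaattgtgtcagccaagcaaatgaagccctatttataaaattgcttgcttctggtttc
The match began at position -99 from the start site in Saa3, -241 in Slpi, -182 in Saa1 and -70 in Cp. A second Cp start site in the table had no match, and Saa2 had the same letters as Saa1 at -183. Among all 32851 stretches of that length in the table, 9.56% held the motif. An NF-kB motif (GGG, any 2 bases, then TTTCC) was also searched on both strands and had no match in any of these stretches, beside 1.41% of all stretches. Over the stretch, Saa1 and Saa2 were 95.6% identical and Saa1 and Saa3 64.4% identical. A match describes letters and is not a measured binding site.

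In the mesothelial gate, Saa3, Slpi and Cp were the abundant members. Saa3, the serum amyloid A gene outside the hepatocyte pattern, had 14687 UMIs and 10499 CPM (10330 to 10670) in the IPA library, against 13395 UMIs and 7336 CPM (7212 to 7461) in the CCl4 library. The IPA level was 1.43 times the CCl4 level (1.40 to 1.47). Over cells, the median was 6522 CPM (quartiles 2307 and 13970, highest 63622) in the IPA library and 2011 CPM (quartiles 182 and 6922, highest 59765) in the CCl4 library. The ranges overlapped over almost their whole width, since both libraries held cells at 0 and cells near the highest level. At least 1 Saa3 UMI was seen in 86 of 88 IPA cells (97.7%, 92.0 to 99.7) and in 78 of 94 CCl4 cells (83.0%, 73.8 to 89.9). After each cell was thinned to 1000 UMIs, the shares were 83.3% of 84 IPA cells (73.6 to 90.6) and 65.6% of 90 CCl4 cells (54.8 to 75.3), with 4 shallower cells left out in each. The thinned share in the B cell gate, which should lack Saa3, was 1.02% in the IPA library and 0.455% in the CCl4 library. Median depths were 13864 UMIs (IPA) and 18366 (CCl4) in the mesothelial gate, and 2351 (IPA) and 2786 (CCl4) in the B cell gate.

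Slpi, the elastase inhibitor, had 5749 CPM (5624 to 5876) for IPA and 4603 CPM (4505 to 4702) for CCl4 cells, a ratio of 1.25 (1.21 to 1.29). Cells with a Slpi UMI numbered 71 of 88 in the IPA library and 82 of 94 in the CCl4 library, and thinned shares were 72.6% (61.8 to 81.8) of IPA and 75.6% (65.4 to 84.0) of CCl4 cells. The pooled level and the share of cells thus did not differ in the same direction. Cp, which oxidises ferrous iron, had 341 CPM (311 to 373) for IPA and 301 CPM (277 to 327) for CCl4 cells. Its ratio was 1.13 (0.999 to 1.28), so that the difference lay at the edge of the counting error. Thinned shares with a Cp UMI were 28.6% (19.2 to 39.5) for IPA and 25.6% (16.9 to 35.8) for CCl4 cells.

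The mesothelial gates of the libraries were not composed alike. In the CCl4 library, 11 of 94 cells had as many stromal as mesothelial markers, or more, and in the IPA library none of 88 did. Those 11 cells had 6288 CPM of the collagen gene Col3a1 and 4.82 CPM of the mesothelial gene Msln, and they held Saa3 at 17177 CPM. One barcode contributed 2136 of their 3565 Saa3 UMIs, 59.9%. Without the 11 cells, the remaining 83 CCl4 cells had 6074 CPM of Saa3, and the IPA level was 1.73 times the CCl4 level (1.68 to 1.77). The Slpi ratio became 1.19 (1.15 to 1.23), and that of Cp 1.20 (1.05 to 1.37). Over the whole gate, the 14 stromal markers summed to 1125 CPM in the IPA library and 4280 CPM in the CCl4 library, with 8 above 0 in the IPA and 10 in the CCl4 library. The 14 monocyte markers summed to 60.0 CPM (IPA) and 1738 CPM (CCl4), of which Fn1, a matrix gene, made up 5.00 CPM (IPA) and 1663 CPM (CCl4). Without the 11 cells the gates still differed, with Col3a1 at 372 CPM (IPA) and 1477 CPM (CCl4), and Fn1 at 5.00 CPM (IPA) and 927 CPM (CCl4). The part of this in the remaining Saa3 difference was not tested.

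**Figure D2:**
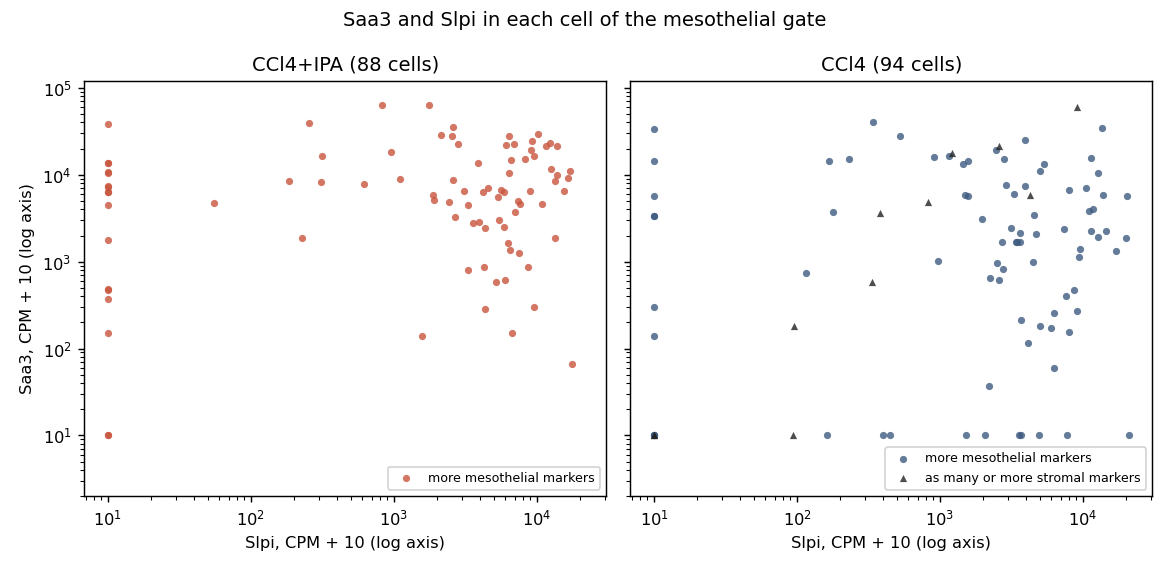
Each point is 1 cell of the mesothelial gate, with Slpi (horizontal) and Saa3 (vertical) in CPM + 10 on log axes, the IPA library left of the CCl4 library. Triangles mark the 11 CCl4 cells with as many or more stromal markers; median Saa3 is 6522 CPM over IPA cells and 2011 CPM over CCl4 cells.

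Within the mesothelial gate, cells rich in Saa3 tended to be rich in Cp and not in Slpi. Spearman's rho of Saa3 and Cp over cells was 0.44 in the IPA library (88 cells) and 0.52 in the CCl4 library (94 cells), while that of Saa3 and Slpi was 0.095 in the IPA library and 0.090 in the CCl4 library. Msln ran the other way, with a rho against Saa3 of -0.38 in the IPA library and -0.25 in the CCl4 library, and against Cp of -0.44 (IPA) and -0.35 (CCl4). Depth differed between cells, and rho of Saa3 with the UMIs per cell was 0.067 in the IPA library and 0.25 in the CCl4 library. With the same UMIs per cell, rho was 0.31 (IPA) and 0.087 (CCl4) for Slpi, and -0.014 (IPA) and 0.096 (CCl4) for Cp. For Msln it was 0.29 (IPA) and 0.008 (CCl4). These are descriptions of cells that share 1 library, without a test.

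Hp was almost lacking from mesothelial cells of the IPA library, with 10 UMIs (7.15 CPM, 3.43 to 13.1), a level that overlapped the 11.7 CPM of its B cell gate. The CCl4 library had 174 UMIs (95.3 CPM, 81.7 to 111) in 13 cells, and 1 cell held 80 of them. The IPA level was lower by 13.3-fold (7.08 to 28.3). Of the 174 CCl4 UMIs, 88 lay in the 11 cells with as many stromal as mesothelial markers, or more. Without those cells the IPA level was lower by 7.43-fold (3.85 to 16.1). Among cells with at least 7 mesothelial markers there were 10 IPA UMIs against 77 CCl4 UMIs, a log2 ratio of -2.82 beside -3.74 for the whole gate. Saa1 had 11 UMIs in 2 IPA cells and 7 UMIs in 4 CCl4 cells, a ratio of 2.05 (0.726 to 6.24). Saa2 and Orm1 had 0 UMIs in this gate in both libraries. The floor of 3 UMIs over the gate was 2.14 CPM in the IPA library and 1.64 CPM in the CCl4 library.

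Of the members with at least 20 UMIs over both libraries, 4 in the mesothelial gate, 0 were at least 2-fold higher and 1 (Hp) at least 2-fold lower in the IPA library. Over all 10629 genes so measured in that gate, 6.34% were at least 2-fold higher and 4.34% at least 2-fold lower. The members' median log2 ratio was 0.25, and that of all genes 0.077. Counting only genes with at least 50 UMIs, 4.12% of genes were higher and 2.96% lower by that fold, and Hp remained the 1 member so called.

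The stromal gate was too small for most members. Saa3 had 0 UMIs in the 8 IPA cells and 17 UMIs (677 CPM, 394 to 1084) in the 8 CCl4 cells, all 17 from 1 cell. Set against the floor of 3 UMIs over the gate (177 CPM in the IPA library), the IPA level was 3.83-fold lower. The exact interval, which covers counting error, has its bound at 2.79-fold. Median depths were only 1000 UMIs (IPA) and 2065 (CCl4). Slpi and Hp had 0 UMIs in the IPA and 1 UMI each in the CCl4 library, and Cp had 2 in the IPA and 0 in the CCl4 library. None of the 7 reached 20 UMIs here, beside 17.5% of 274 measured genes at least 2-fold higher and 19% at least 2-fold lower in the IPA library (10.7% higher and 16.5% lower with at least 50 UMIs).

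Cells with many stromal markers and Saa3 were found when the limit on mesothelial markers was lifted. Cells with at least as many stromal as mesothelial markers, a definition chosen after the data were seen, numbered 8 in the IPA library and 28 in the CCl4 library. The IPA cells were those of the stromal gate. The CCl4 cells were the 8 of the stromal gate, the 11 of the mesothelial gate described above and 9 without a gate. The 28 CCl4 cells held 4370 Saa3 UMIs (9476 CPM, 9197 to 9761), 661 of Slpi, 129 of Cp and 126 of Hp, against 0 of Saa3, Slpi and Hp and 2 of Cp in the 8 IPA cells. By the same floor Saa3 was 53.7-fold lower in the IPA cells, with an exact bound of 43.6-fold, but the cells compared were not alike. Of the CCl4 Saa3 UMIs, 3565 lay in the 11 cells of the mesothelial gate, 788 in the 9 without a gate and 17 in the stromal gate. The IPA cells were all of the stromal gate. The UMIs of the 28 CCl4 cells lay in few cells, with Saa3 in 13 of 28 and 2136 UMIs in 1. Their median depth was 13128 UMIs, against 1000 in the IPA cells. Fewer such cells in the IPA library and a lower level in each cannot be told apart.

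In the neutrophil gate, Slpi and Hp were abundant and nearly alike in both libraries. Slpi had 5302 UMIs and 2214 CPM (2155 to 2274) in the IPA library, against 5454 UMIs and 2079 CPM (2025 to 2135) in the CCl4 library, a ratio of 1.06 (1.02 to 1.11). Hp, the haemoglobin scavenger, had 1467 CPM (1419 to 1517) in IPA and 1443 CPM (1397 to 1490) in CCl4 neutrophils, a ratio of 1.02 (0.971 to 1.06). Medians over cells were 1838 CPM (IPA) and 1787 CPM (CCl4) for Slpi, and 1283 CPM (IPA) and 1182 CPM (CCl4) for Hp. Thinned shares of cells with Slpi were 74.0% (71.0 to 76.7) for IPA and 73.6% (70.4 to 76.6) for CCl4 cells. For Hp they were 72.2% (69.2 to 75.0) of IPA and 65.8% (62.4 to 69.1) of CCl4 neutrophils. Thinned B cell shares were 1.02% (IPA) and 1.28% (CCl4) for Slpi and 0.794% (IPA) and 0.561% (CCl4) for Hp. Saa3 had 8.77 CPM in IPA neutrophils and 10.3 CPM in CCl4 neutrophils, where the B cell gate had 8.93 CPM (IPA) and 5.22 CPM (CCl4). Thinned shares with Saa3 were 1.15% (0.576 to 2.05) in IPA neutrophils and 1.25% (0.602 to 2.29) in CCl4 neutrophils.

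Neutrophils that carried secondary-granule transcripts (at least 3 of Camp, Ngp, Ltf, Cd177 and Mmp8, genes of maturing cells) were 126 cells (11.9% of the gate) in the IPA library and 148 cells (17.4%) in the CCl4 library. They were the seat of Orm1, an acid glycoprotein that binds drugs and lipids, with 95 of 96 IPA UMIs and 92 of 93 CCl4 UMIs. Its level there was 131 CPM (106 to 160) for IPA and 94.6 CPM (76.2 to 116) for CCl4 cells, a ratio of 1.38 (1.03 to 1.86), against 1.13 (0.841 to 1.52) over the whole gate. Orm1 UMIs were seen in 26 of the 126 IPA and 21 of the 148 CCl4 cells. The paralog Orm2 holds 31.8% of the 90-base windows in the last part of the Orm1 transcript. Reads from such windows cannot be told apart between the genes, and the effect on the Orm1 counts was not tested. Slpi was lower in these cells (1261 CPM IPA, 1382 CPM CCl4) than in other neutrophils (2629 CPM IPA, 2491 CPM CCl4), with intervals that did not overlap. Hp showed less of a difference, and its direction was not the same in both libraries. In the IPA library it was lower in the secondary-granule cells (1361 CPM) than in the others (1513 CPM). In the CCl4 library it was higher in the secondary-granule cells (1508 CPM) than in the others (1405 CPM). Median depths of the secondary-granule cells were 4521 (IPA) and 5970 (CCl4) UMIs, and those of the others 1637 (IPA) and 2170 (CCl4).

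**Figure D3:**
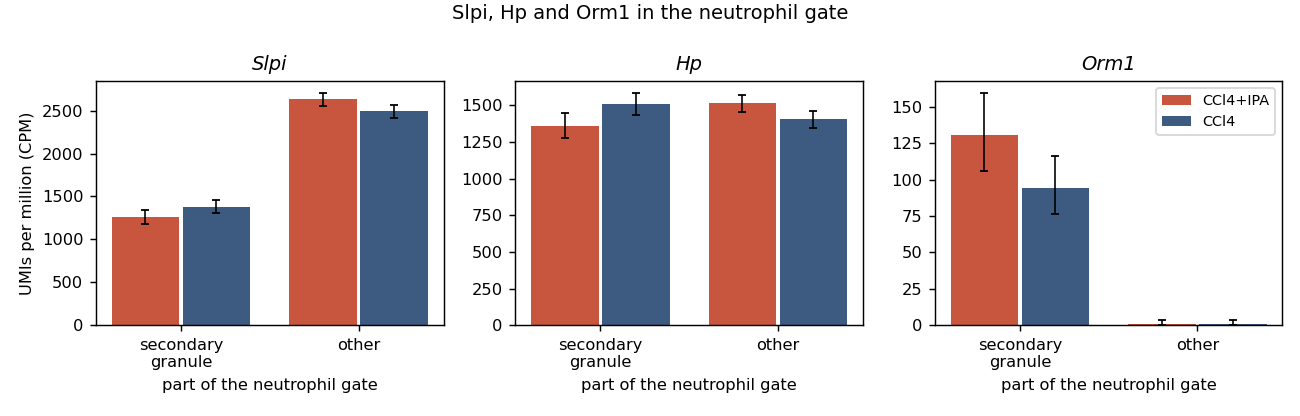
Level of Slpi, Hp and Orm1 in CPM (vertical axis from 0) in neutrophils with secondary-granule transcripts and in the others, with the IPA library (red) left of the CCl4 library (blue) and exact 95% Poisson intervals. Orm1 stands at 131 CPM (IPA) and 94.6 CPM (CCl4) in the secondary-granule cells and near 0 elsewhere, while Slpi is higher in the other neutrophils.

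In this gate 4 members were measured, and 0 were at least 2-fold higher and 0 at least 2-fold lower in the IPA library. Over 8411 genes the shares were 4.49% higher and 1.58% lower. With at least 50 UMIs they were 1.99% higher and 0.506% lower. The median log2 ratio was 0.057 for the members and 0.15 for all genes, so that Slpi (0.090) and Hp (0.024) lay below the centre of the gate.

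Proteases of the neutrophil primary granule stood far apart between the neutrophil gates. Slpi is known to inhibit Elane and Ctsg of these. Elane (neutrophil elastase) had 475 CPM in the IPA library and 2.67 CPM in the CCl4 library, Prtn3 (proteinase 3) 287 CPM (IPA) and 6.10 CPM (CCl4), and Ctsg (cathepsin G) 29.6 CPM (IPA) and 0.381 CPM (CCl4). Cells with at least 2 UMIs of Elane, Prtn3, Mpo and Ctsg together, called primary-granule cells and thus chosen by these genes, were 8 in the IPA and 7 in the CCl4 library. Their Elane level was 8077 CPM in the IPA library and 71.7 CPM in the CCl4 library. Without them, Elane was at 1.33 CPM in the IPA library and 1.17 CPM in the CCl4 library. Their median depth was 16876 UMIs in the IPA library and 4033 in the CCl4 library. Slpi in these cells was 121 CPM (17 UMIs) in the IPA library and 663 CPM (37 UMIs) in the CCl4 library. By their Elane level and depth the cells compared were not alike, so no difference within a cell class is read from this.

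In the monocyte gate, Hp and Slpi were both higher in the IPA library. Hp had 1302 UMIs and 708 CPM (670 to 747) in the IPA library, against 1586 UMIs and 431 CPM (410 to 453) in the CCl4 library, a ratio of 1.64 (1.52 to 1.77). Slpi had 589 UMIs and 320 CPM (295 to 347) in the IPA library, against 650 UMIs and 177 CPM (163 to 191) in the CCl4 library, a ratio of 1.81 (1.62 to 2.03). Over cells, median Hp was 647 CPM (quartiles 110 and 1174) in the IPA library and 108 CPM (quartiles 0 and 714) in the CCl4 library. Thinned shares with Hp were 45.4% (39.1 to 51.8) for IPA and 28.0% (23.7 to 32.5) for CCl4 cells, and with Slpi 22.1% (17.1 to 27.8) of IPA and 10.7% (7.89 to 14.0) of CCl4 monocytes. Cells with Slpi tended to have Hp, with a rho of 0.42 over 255 IPA cells and 0.52 over 431 CCl4 cells, again within 1 library each.

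The makeup of the monocyte gate also differed between the libraries. Classical monocytes (at least 3 of Ly6c2, Ccr2, F13a1, Chil3 and Vcan, without dendritic cell or primary-granule genes) were 109 of 255 IPA cells (42.7%) and 120 of 431 CCl4 cells (27.8%). Cells with a dendritic cell marker had a UMI of any of Cd209a, Flt3, H2-DMb2 and Clec10a, without primary-granule genes. They were 97 (38.0%) in the IPA library and 196 (45.5%) in the CCl4 library. Their median depths were 6936 UMIs (IPA) and 8879 (CCl4). Nonclassical cells were 16 in the IPA and 48 in the CCl4 library. Within classical monocytes, Hp was at 924 CPM (855 to 997) for IPA and 890 CPM (831 to 952) for CCl4 cells, a ratio of 1.04 (0.936 to 1.15). Slpi was at 437 CPM (390 to 489) in IPA and 319 CPM (284 to 357) in CCl4 cells, a ratio of 1.37 (1.17 to 1.61). Thus the Hp ratio was near 1 among classical monocytes, with an interval below that of the whole gate (1.52 to 1.77). The Slpi ratio was smaller there than in the whole gate. The part of the makeup in the whole-gate differences was not tested. These strata were defined after the data were seen.

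The libraries stood further apart in cells with a dendritic cell marker. There, Hp was at 630 CPM (574 to 690) for IPA and 177 CPM (158 to 198) for CCl4 cells, a ratio of 3.56 (3.08 to 4.11), and Slpi at 259 CPM (223 to 298) for IPA and 56.3 CPM (45.8 to 68.4) for CCl4 cells, a ratio of 4.60 (3.60 to 5.91). The same cells had 1507 CPM (IPA) and 384 CPM (CCl4) of the classical monocyte gene Ly6c2, and 2722 CPM (IPA) and 6611 CPM (CCl4) of the antigen presentation gene H2-Ab1. In the IPA library they thus carried more of a monocyte marker and less of that antigen presentation gene. The part of this in the Hp and Slpi difference was not tested. Nonclassical cells had 363 CPM of Hp (228 to 550) for IPA and 328 CPM (254 to 416) for CCl4 cells. In cells with primary-granule transcripts (21 IPA, 32 CCl4), Slpi was lower in the IPA library. It was at 253 CPM (70 UMIs) against 396 CPM (229 UMIs) in the CCl4 library, a ratio of 0.638 (0.481 to 0.837). Those cells were not alike either, with H2-Ab1 at 531 CPM (IPA) and 36.4 CPM (CCl4). Elane was at 487 CPM (IPA) and 1738 CPM (CCl4) in them. The part of this in the Slpi difference was not tested. Neutrophil markers summed to 390 CPM (IPA) and 194 CPM (CCl4) over the gate, with 10 of 12 above 0 in the IPA and 11 in the CCl4 library. In cells without any neutrophil marker (59 IPA, 176 CCl4), Hp and Slpi had ratios of 1.87 (1.47 to 2.38) and 1.87 (1.32 to 2.63).

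**Figure D4:**
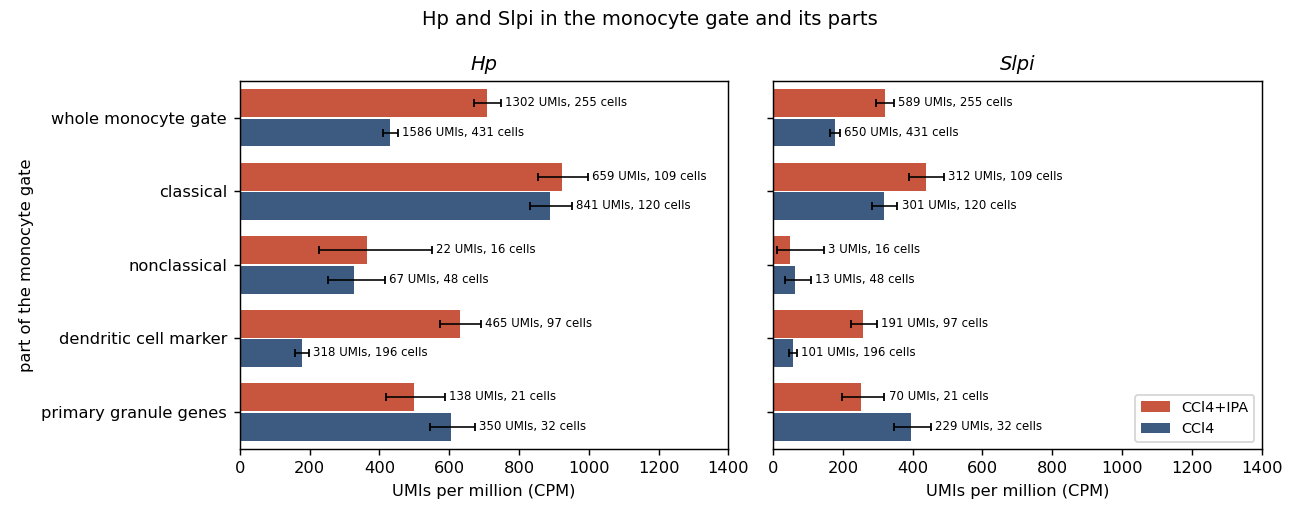
Level of Hp and Slpi in CPM (horizontal axis from 0) over the whole monocyte gate and in 4 of its parts, with the IPA library (red) above the CCl4 library (blue), exact 95% Poisson intervals, and the UMIs and cells behind each bar. Hp is nearly equal in classical monocytes (924 CPM IPA, 890 CPM CCl4) and apart in cells with a dendritic cell marker (630 CPM IPA, 177 CPM CCl4).

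Saa3 in the monocyte gate was rare, with 42 UMIs in 15 IPA cells (22.8 CPM, 16.5 to 30.9) and 33 UMIs in 19 CCl4 cells (8.97 CPM, 6.18 to 12.6). The ratio was 2.54 (1.57 to 4.14). At equal depth, 6 of 249 IPA cells (2.41%, 0.889 to 5.17) and 3 of 422 CCl4 cells (0.711%, 0.147 to 2.06) had a UMI, intervals that include the B cell shares of 1.02% and 0.455%. In cells without a neutrophil marker the counts were 3 UMIs (IPA) and 9 UMIs (CCl4), a ratio of 1.12 (0.195 to 4.50). Saa1, Saa2 and Orm1 had 0 UMIs, and Cp 1 in the IPA and 2 in the CCl4 library. Of 3 measured members, 1 (Saa3) was at least 2-fold higher in the IPA library and 0 at least 2-fold lower, beside 4.35% of 10123 genes higher and 2.45% lower (2.69% higher and 1.33% lower with at least 50 UMIs). The median log2 ratio was 0.86 for the members and 0.20 for all genes.

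The order of levels over the 9 gates with at least 20 cells in each library was the same at the top. Slpi ran from mesothelial to neutrophil cells in both libraries, each apart from the next beyond counting error. In the IPA library the basophil or mast cell gate (347 CPM, 227 to 508) and the monocyte gate (320 CPM) followed and overlapped. In the CCl4 library the monocyte gate (177 CPM) was apart from the basophil or mast cell gate (101 CPM, 57.5 to 163), which overlapped the plasmacytoid dendritic cell gate (99.7 CPM, 88.0 to 112). For Hp the neutrophil and monocyte gates came first and were apart in both. After the mesothelial gate, the next Saa3 level was that of the basophil or mast cell gate, but it rested on 2 UMIs in each library (26.7 CPM, 3.23 to 96.4, for IPA and 12.6 CPM, 1.52 to 45.4, for CCl4 cells). That is under the floor of 3 UMIs, so no order is read from it.

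Hepatocytes, the textbook source, were few in this cell preparation. The hepatocyte gate held 19 IPA and 14 CCl4 cells. Hp was at 1015 CPM (868 to 1180) for IPA and 1004 CPM (727 to 1353) for CCl4 cells, a ratio of 1.01 (0.720 to 1.45). Orm1 was at 759 CPM (127 UMIs, 632 to 902) in IPA and 1425 CPM (61 UMIs, 1090 to 1830) in CCl4 hepatocytes, a ratio of 0.532 (0.389 to 0.735), with 48 of the IPA and 21 of the CCl4 UMIs in 1 cell each. The gate held 167435 UMIs in the IPA library and 42814 in the CCl4 library. Saa1 had 23 UMIs in 3 IPA cells (137 CPM) and 5 in 2 CCl4 cells (117 CPM), a ratio of 1.18 (0.437 to 3.96). Saa2 had 9 UMIs (53.8 CPM) in the IPA library and 0 in the CCl4 library, where 3 UMIs would be 70.1 CPM, so a difference was not detectable at this depth. Cp had 40 UMIs (239 CPM) in the IPA library and 1 (23.4 CPM) in the CCl4 library, a ratio of 10.2 (1.73 to 414). Saa1 and Saa2 transcripts are 94.4% identical but share no window of 90 bases. The bile duct (cholangiocyte) gate, 10 cells in each library, had Cp at 2712 CPM (2398 to 3056) for IPA and 2535 CPM (2372 to 2707) for CCl4 cells, a ratio of 1.07, with an interval that included 1. Every cell of that gate had a Cp UMI, and 1 cell held 139 of 270 IPA UMIs and 1 held 342 of 895 CCl4 UMIs.

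The genes whose levels ran most like Saa3 over 18 summed profiles (9 gates in 2 libraries, Pearson's r of log2 CPM with 10 added, 4102 genes) were Gas6 (0.994), Timp1 (0.992), Prr15l (0.992), Ogn (0.991) and Ghr (0.991). For Slpi they included Bst1 (0.918), Ninj1, Dstn and Mbnl2 (0.879), and for Hp they were Msrb1 (0.937), Cd177, Chil3, Pla2g7 and Clec4e (0.928). Saa3 was high in the mesothelial gate alone, so a gene largely confined to that gate would also have a high r with it. Profiles of a library share its depth and free RNA, and those of a gate are pairs, so these values are descriptions.

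Other acute phase, protease inhibitor, protease, inducer and receptor genes were taken from lists of 122 genes in all. The lists were chosen with earlier results of these data known, so their counts are descriptions and no independent support. In the mesothelial gate 13 of 28 acute phase genes were measured. Of these 5 were at least 2-fold higher and 0 at least 2-fold lower in the IPA library, beside 6.34% and 4.34% of all genes. The median log2 ratio was 0.88 for these genes and 0.077 for all genes. The metallothioneins, metal-binding proteins, led: Mt2 had 595 CPM in the IPA library against 177 CPM in the CCl4 library (ratio 3.36, 2.95 to 3.83), and Mt1 had 1350 CPM (IPA) against 437 CPM (CCl4; ratio 3.09, 2.84 to 3.36). Lbp, which binds bacterial lipopolysaccharide, had 241 CPM (IPA) against 108 CPM (CCl4), and C3, the central complement component, 25153 CPM (IPA) against 13487 CPM (CCl4; ratio 1.86, 1.83 to 1.90). Lcn2, an iron-sequestering protein, had 230 CPM (IPA) against 221 CPM (CCl4), a ratio of 1.04 (0.898 to 1.21).

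Protease inhibitors of the mesothelial gate differed in both directions. Of 19, 3 were at least 2-fold higher and 3 at least 2-fold lower, beside 6.34% and 4.34% of all genes, with a median log2 ratio of 0.036. Serpina3n, an inhibitor of the serpin family, had 214 CPM (IPA) against 70.1 CPM (CCl4; ratio 3.05, 2.47 to 3.78). Serpinf1 had 4 UMIs in the IPA library against 61 in the CCl4 library, lower by 11.7-fold (4.34 to 44.2), Timp3, an inhibitor of matrix metalloproteinases, had 258 CPM (IPA) against 595 CPM (CCl4), and Cstb, a cathepsin inhibitor, 174 CPM (IPA) against 287 CPM (CCl4). Stromal markers were higher in the CCl4 gate, as given above, and their part in these differences was not tested.

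Of the inducers, 4 of 19 were at least 2-fold higher and 1 at least 2-fold lower in the IPA mesothelial gate, beside 6.34% of all genes higher and 4.34% lower. Their median log2 ratio was 0.28, beside 0.077 for all genes. Il6ra, a receptor chain for interleukin 6, had 90.1 CPM in the IPA library against 29.0 CPM in the CCl4 library (3.10, 2.23 to 4.36). Nfkbiz, a nuclear partner of NF-kB, had 836 CPM (IPA) against 305 CPM (CCl4; ratio 2.74, 2.48 to 3.04). Stat3 had 396 CPM (IPA) against 252 CPM (CCl4) and Cebpb 652 CPM (IPA) against 466 CPM (CCl4). Il1r1, the interleukin 1 receptor, had 21.4 CPM (IPA) against 113 CPM (CCl4), a ratio of 0.190 (0.125 to 0.280). Receptors and partners had 1 of 10 at least 2-fold higher and 0 lower, and of 3 proteases 0 were higher and 0 lower. Anxa2, a membrane-bound annexin, had 400 CPM (IPA) against 658 CPM (CCl4).

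**Figure D5:**
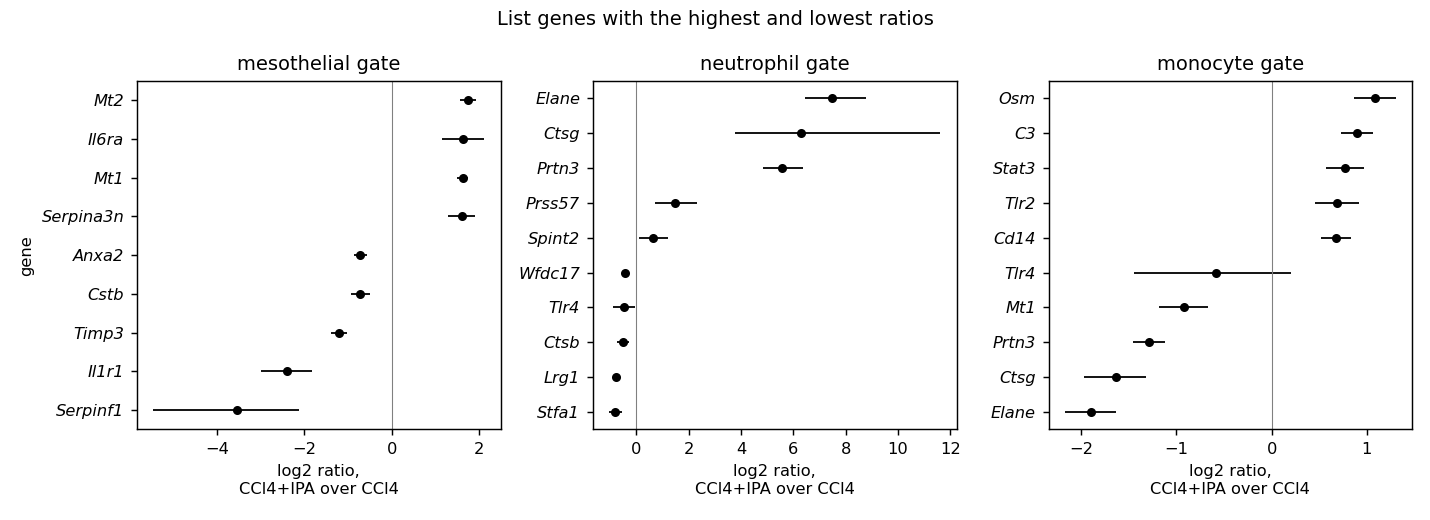
Log2 ratio of the IPA over the CCl4 library (horizontal axis) for list genes among the 5 highest and 5 lowest of those with at least 50 UMIs in the higher library, in the mesothelial, neutrophil and monocyte gates; lines are exact 95% intervals. Metallothioneins are among the highest in the mesothelial gate, primary-granule proteases are highest in the neutrophil gate and lowest in the monocyte gate.

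In the neutrophil gate 9 acute phase genes were measured, with 0 at least 2-fold higher and 0 lower and a median log2 ratio of 0.030. Over all genes of that gate, beside which the counts below stand, 4.49% were higher and 1.58% lower by that fold. Lrg1, a secreted glycoprotein, had 466 CPM in the IPA library against 791 CPM in the CCl4 library (ratio 0.589, 0.547 to 0.633). Of 15 protease inhibitors 2 were at least 2-fold higher and 0 lower. Stfa1, a stefin that inhibits cathepsins, had 95.2 CPM (IPA) against 165 CPM (CCl4; ratio 0.575, 0.488 to 0.677; near-identical stefin genes could share its reads), and Wfdc17, a relative of Slpi with the same kind of domain, 1309 CPM (IPA) against 1766 CPM (CCl4; ratio 0.741, 0.708 to 0.776). Spint2, an inhibitor of serine proteases, had 28.8 CPM (IPA) against 18.3 CPM (CCl4). Of 7 proteases 4 were higher (Elane, Prtn3, Ctsg and Prss57), and Prss57 had 21.3 CPM (IPA) against 7.63 CPM (CCl4). Ctsb, a lysosomal cathepsin, had 117 CPM (IPA) against 168 CPM (CCl4). Of 19 inducers 0 were at least 2-fold higher and 1 lower, and of 11 receptors 0 and 0. Tlr4, the lipopolysaccharide receptor, had 33.8 CPM (IPA) against 46.5 CPM (CCl4).

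In the monocyte gate 1 of 8 acute phase genes was at least 2-fold higher and 1 lower, and 1 of 17 inhibitors higher and 1 lower. Over all genes of that gate, beside which the counts below also stand, 4.35% were higher and 2.45% lower by that fold. C3 had 306 CPM in the IPA library against 164 CPM in the CCl4 library (1.86, 1.66 to 2.09), Cd14, a lipopolysaccharide co-receptor, 336 CPM (IPA) against 211 CPM (CCl4), and Mt1 84.3 CPM (IPA) against 160 CPM (CCl4; ratio 0.528, 0.439 to 0.631). Inducers had 2 of 21 at least 2-fold higher and 0 lower, with a median log2 ratio of 0.50 beside 0.20 for all genes. Osm (oncostatin M), a relative of interleukin 6, had 196 CPM (IPA) against 92.4 CPM (CCl4; ratio 2.12, 1.83 to 2.47), and Stat3 206 CPM (IPA) against 121 CPM (CCl4; ratio 1.71, 1.48 to 1.96). Of 6 proteases 0 were higher and 3 lower: Elane was 3.72-fold lower in the IPA gate (3.11 to 4.49), Ctsg 3.11-fold (2.50 to 3.90) and Prtn3 2.44-fold (2.16 to 2.75). Elane lay almost wholly in the primary-granule cells of the gate, which were chosen by these genes, at 487 CPM in 21 IPA cells against 1738 CPM in 32 CCl4 cells. In classical monocytes it was at 0 CPM (IPA) against 1.06 CPM (CCl4). Receptors had 0 of 13 higher and 3 lower, and Tlr2 had 154 CPM (IPA) against 95.4 CPM (CCl4) and Tlr4 9.78 CPM (IPA) against 14.7 CPM (CCl4). In the stromal gate no list gene reached 50 UMIs in the higher library. Of 6 measured genes there, 2 inhibitors were at least 2-fold higher and 1 acute phase gene lower, beside 17.5% and 19% of 274 genes.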

How the data were processed

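Droplet libraries were made with 10x Genomics 3′ V3 chemistry from dissociated liver after red cell lysis and dead cell removal, per the labels' protocols. The deposited values were raw UMI counts. Cell Ranger 7.1.0 produced them per the file headers, with reads aligned to mm9 per the submitters' processing notes. No label or header used here says how barcodes were called as cells.

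Barcodes were kept from 500 UMIs and 300 genes upward and below 20% of UMIs from the 37 mitochondrial genes, which left 10459 in the IPA and 10294 in the CCl4 library, and 331 IPA and 278 CCl4 barcodes called by Scrublet were removed. Gates were set by marker lists as described above. Stromal markers did not count against the mesothelial gate, and the stromal gate allowed at most 1 mesothelial marker. Counts were summed per gate and library and scaled to CPM. Poisson, conditional binomial (ratios) and Clopper-Pearson (shares) intervals were at 95%. Folds against 0 set the 0 at 3 UMIs over the gate and leave out the counting error of the other library. The exact bounds given beside them cover it. Where both libraries had 3 UMIs or fewer, ratios were left out. No test was run. Genes entered counts with at least 20 UMIs over both libraries. Thinning and doublet calling used a seed of 1. The interval and 2-fold steps were tested on simulated counts.

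The gene set, lists and gates were chosen with earlier results of these data known. Named genes are the 7, the 5 highest and 5 lowest list genes per gate with at least 50 UMIs in the higher library, and the 5 most like Saa3, Slpi and Hp, but some genes that these rules select are not reported here. Lbp, C3 and Lcn2 in the mesothelial gate, Nfkbiz, Stat3 and Cebpb were named after their values were seen, as were the motifs searched. Alternatives were other limits on markers, depth, mitochondrial share and UMIs, called doublets kept, clusters, per-cell means, the all-gene median as centre, leaving out the top barcode, and 6 added after the data were seen. Doublets and clusters came from scanpy 1.11.5 (leidenalg 0.10.2, igraph 0.11.9), intervals from scipy 1.17.1 and figures from matplotlib 3.10.9, under Python 3.11.15. Sequences are RefSeq entries for Saa3, Slpi, Saa1, Saa2 and Cp, matched by symbol, and paralog identity used GENCODE M21 transcripts, neither joined to coordinates of the files.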

Additional observations from a re-analysis of the deposited data

Results flagged for a closer look

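Slpi differed in opposite directions between gates. Its log2 ratio of the IPA over the CCl4 library was 1.79 in the basophil or mast cell gate (26 UMIs in 24 IPA cells against 16 UMIs in 42 CCl4 cells) and -0.55 in the plasmacytoid dendritic cell gate (141 IPA against 266 CCl4 UMIs), 2.34 apart. In the basophil or mast cell gate 1 IPA cell held 22 of the 26 UMIs. The difference between the gates was not tested.

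Hp had a log2 ratio of 1.81 in the natural killer cell gate (20 UMIs in 1070 IPA cells against 3 UMIs in 518 CCl4 cells) and -3.74 in the mesothelial gate (10 IPA against 174 CCl4 UMIs), 5.54 apart. The natural killer level was 5.04 CPM in the IPA library and 1.44 CPM in the CCl4 library, near the 5.48 CPM (IPA) and 2.35 CPM (CCl4) of the T cell gate. Of the 174 CCl4 mesothelial UMIs, 88 lay in the 11 cells with as many stromal as mesothelial markers, or more. The difference between the gates was not tested either.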

How the results depend on the processing

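Values are log2 ratios of the IPA over the CCl4 library. No result changed sign where its main interval excluded 0, except that Slpi in neutrophils (0.090) became -0.056 less the all-gene median; there, Hp (0.024, interval across 0) became -0.12. Less that median, Saa3 and Slpi in the mesothelial gate were 0.44 and 0.24 (0.52 and 0.32 as reported), and Hp and Slpi in the monocyte gate 0.51 and 0.66 (0.71 and 0.86). As means of per-cell CPM these 4 were 0.76, 0.11, 0.88 and 1.05, and Slpi and Hp in neutrophils 0.16 and 0.10. Mesothelial Saa3 was 0.56 with at least 4 markers and 0.63 without the top barcode. Mesothelial Slpi was 0.40 with a margin of 1 marker. With clusters in place of gates, mesothelial Slpi was 0.49 and monocyte Hp 0.90. Without cells with as many stromal markers, Saa3 and Slpi were 0.79 and 0.25, and with at least 7 markers 0.73 and 0.18. Slpi was 0.15 without primary-granule neutrophils. In classical monocytes Hp and Slpi were 0.054 and 0.46, and Hp was 0.90 without neutrophil markers. The cause of these shifts was not tested. Saa3 in the stromal gate was below 0 in 8 of 8 alternatives, from -5.75 to -1.77, with 0 IPA UMIs in each. All but the wider stromal definition reused the same 17 CCl4 UMIs of 1 cell. The shared sign was thus fixed in advance and is no support. With at least 50 UMIs, which leaves fewer genes, list genes at least 2-fold apart were 0 higher and 0 lower in the stromal gate (2 and 1 as reported), 0 lower in neutrophils (1) and 3 lower in monocytes (8). The other 57 values of the main results stayed within the counting interval or near the count reported. Orm1 in neutrophils, with an interval across 0, ran from -0.14 to 0.26. Clusters, per-cell means and leaving out the top barcode gave no stromal value, and Slpi in the stromal gate had none. No paired analysis was possible because each group has 1 library. Of the mesothelial, stromal, neutrophil and monocyte gates, depth limits the stromal gate most: 3 UMIs are 177 CPM in the IPA library.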

Other observations

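Slpi was also present in the plasma cell gate, at 1653 CPM (364 UMIs, 15 cells) in the IPA library and 378 CPM (172 UMIs, 25 cells) in the CCl4 library. Most came from few cells: 9 cells had a UMI in each library, and the top cell held 194 of the IPA and 92 of the CCl4 UMIs. In the plasmacytoid dendritic cell gate, Slpi UMIs were in 76 of 349 IPA cells (68.0 CPM) and 137 of 394 CCl4 cells (99.7 CPM), above the B cell levels of 19.7 CPM (IPA) and 16.1 CPM (CCl4).

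Barcodes without a gate held 57 Saa3 UMIs (16.4 CPM, 898 barcodes) in the IPA library and 1718 (288 CPM, 1276 barcodes) in the CCl4 library. In the CCl4 library, 788 of these lay in the 9 barcodes with at least as many stromal as mesothelial markers. Another 679 came from 1 further barcode.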
